A study of Danio rerio with 6 samples.

Results

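The zebrafish genes fn1a (ENSDARG00000019815) and fn1b (ENSDARG00000006526) are paralogs that each encode fibronectin 1. They were taken by Ensembl identifier from the deposited count table, where they are 2 of 32520 genes, and both passed the filter on low counts that kept 17879 genes. RNA came from adult hearts of the AB background that were cryoinjured and collected 7 days post-cryoinjury (dpci), so every library carries the injury and there is no uninjured group. The ventricular apexes were from mdka cn105 fish, labelled KO, or from mdka +/+ fish of the same crosses. The mdka cn105 fish carry a CRISPR/Cas9 mutation in exon 3 of mdka (the heparin-binding growth factor midkine a). The study treats heterozygous fish as a separate group, which was not sequenced. Each genotype has 3 libraries, each made from a pool of 3 apexes, and they are named by their replicate numbers (2, 3 and 4 for mdka cn105, and 1, 2 and 4 for mdka +/+). The mutation is in the germline, so it is not restricted to a cell type, and only 1 mutant allele was sequenced. In bulk tissue, fewer cells of a type and less RNA per cell cannot be told apart.

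Fibronectin is a large glycoprotein secreted as a dimer and assembled into fibrils at the cell surface. Its cell-binding region carries an RGD motif recognised by integrins, and other regions bind collagen, fibrin, heparin and syndecans, so a fibronectin network is a scaffold on which collagens and matricellular proteins are laid down. In the zebrafish heart, fibronectin is deposited after injury, with the epicardium as a known source. In zebrafish embryos, loss of fn1a disturbs the migration of the heart precursors to the midline, and fn1a and fn1b act together at somite boundaries.

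The study also measured both transcripts by qPCR in other heart samples, and the primers are shown because they define which transcript each assay was built to amplify. Each primer has 20 bases. Sequences are written 5′ to 3′.
fn1a forward: ggagaacgctctacgcaaac
fn1a reverse: aggtctggtctcaggcactc
fn1b forward: cagcagtccccctcttactg
fn1b reverse: catgacacctggatgcaaac
The GC content was 55.0% and 60.0% for the fn1a pair, and 60.0% and 50.0% for the fn1b pair. The qPCR values themselves were not used here. The RNA-seq table counts each gene over all of its listed transcripts, 3 for fn1a and 5 for fn1b, so a count is not restricted to the amplified stretch.

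The comparison of the genotypes asks whether fibronectin transcript levels differed between injured mdka cn105 and mdka +/+ ventricles. Neither paralog passed the test, and the mdka cn105 and mdka +/+ pools overlapped for both. The mean of fn1a was 1.09-fold that of mdka +/+ (95% interval 0.804 to 1.49), and the mean of fn1b was 0.997-fold (95% interval 0.724 to 1.37). Both transcripts were abundant in every pool, with fn1b at rank 26 and fn1a at rank 104 of the 17879 genes by mean CPM (counts per 1000000, with library sizes scaled by TMM, the trimmed mean of M-values).

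The fn1a expected counts were 20526, 24685 and 23354 in mdka cn105 replicates 2, 3 and 4, and 23889, 15084 and 18074 in mdka +/+ replicates 1, 2 and 4. As CPM, these were 800.2, 1146 and 1163 in mdka cn105, and 1110.3, 782 and 952 in mdka +/+. The lowest value of each genotype came from its replicate 2, and mdka +/+ replicate 1 lay close to the higher pair of mdka cn105 pools. Mean levels were 1037 ± 205 CPM for mdka cn105 against 948 ± 164 CPM for mdka +/+ (SD over 3 pools each). The log2 fold change of mdka cn105 over mdka +/+ was 0.13 (SE 0.19, 95% interval -0.31 to 0.57), and the adjusted p was 0.879 (quasi-likelihood test of edgeR, Benjamini-Hochberg over all genes). A two-sided exact permutation test on the CPM gave p = 0.5, where 3 pools against 3 allow no p below 0.1.

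The fn1b expected counts were 90710, 67022 and 92371 in mdka cn105 replicates 2, 3 and 4, and 67438, 68474 and 87236 in mdka +/+ replicates 1, 2 and 4. As CPM, these were 3536, 3112 and 4601 in mdka cn105, and 3134, 3549.5 and 4597 in mdka +/+. The pools of the 2 genotypes lay almost on top of each other: the lowest, middle and highest mdka cn105 values each had an mdka +/+ value close by. Mean levels were 3749.8 ± 767 CPM for mdka cn105 against 3760.4 ± 754 CPM for mdka +/+ (SD over 3 pools each). The log2 fold change was -0.00 (SE 0.20, 95% interval -0.47 to 0.46), the adjusted p was 0.997 in edgeR's test, and the exact permutation p on the CPM was 0.8.

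**Figure D1:**
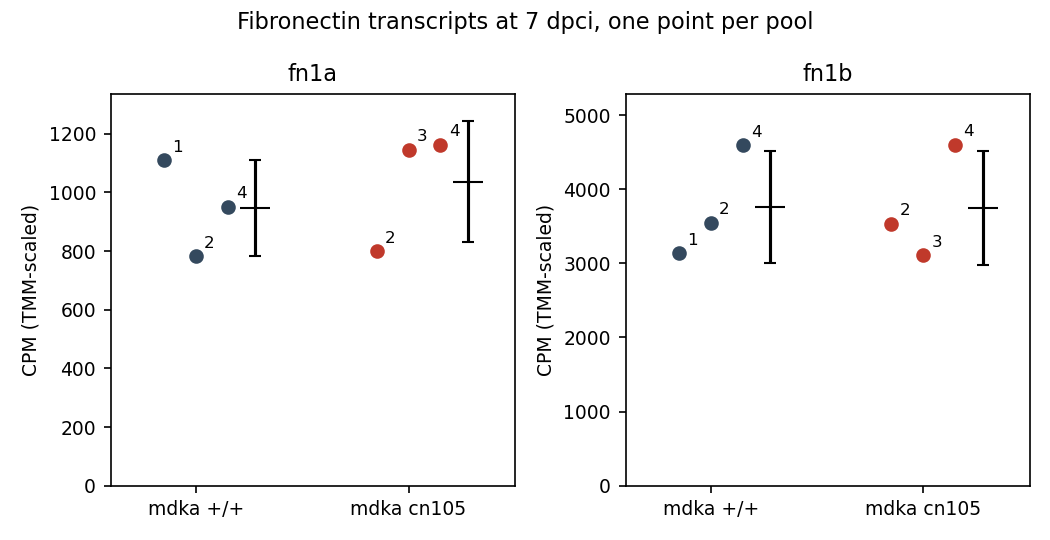
CPM scaled with TMM (vertical axes, starting at 0) of fn1a and fn1b in each pool, with the replicate number beside each point and the mean ± SD of the 3 pools beside each genotype. The genotypes overlap in both panels, with fn1a between 782 and 1163 CPM and fn1b between 3112 and 4601 CPM over all 6 pools.

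Across the table, 2157 of 17879 genes (12.1%) had an unadjusted p under 0.05, the threshold the study used, with 5.64% higher and 6.42% lower in mdka cn105. Without mdka cn105 replicate 4 the number was 1332. Neither fibronectin gene was among the genes called in any of these fits. The absolute log2 fold change of fn1a was exceeded by 63.5% of the genes tested and that of fn1b by 98.8%. CPM of the genotypes did not overlap for 17.7% of the genes, and did overlap for both paralogs. After adjustment over all genes 1 gene (0.00559%) passed in edgeR's test, 2 in limma-voom and 445 in DESeq2, and the lowest adjusted p of the 2 paralogs was 0.879, 0.883 and 0.941 by the same tools.

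The libraries held between 18940128 and 25195457 expected counts, of which fn1a took 0.0761% to 0.123% and fn1b 0.292% to 0.488%. Counting error alone amounts to 0.636% to 0.814% of the fn1a count and 0.329% to 0.386% of the fn1b count of a library. The spread between pools was many times larger, with coefficients of variation of 19.8% (mdka cn105) and 17.3% (mdka +/+) for fn1a, and of 20.5% and 20.1% for fn1b. There were 13 edgeR fits, with TMM, other normalizations or filters, the replicate number as a block, or a library left out. Over these fits the widest 95% bounds on the fold change were 0.711 to 1.66 for fn1a and 0.64 to 1.54 for fn1b. The targeted gene mdka was measured at 81.8, 132 and 139 CPM in the mdka cn105 pools and at 429, 731 and 1069.5 CPM in the mdka +/+ pools (log2 fold change -2.66, adjusted p = 0.0944 in edgeR's test), so the labels and this transcript go the same way.

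RSEM, the program that estimated the counts, divides a read that matches transcripts of several genes among them. Any split of shared reads between paralogs is therefore an estimate. All 12 values of fn1a and fn1b in the table were whole numbers (tolerance 0). The sum of both genes does not depend on a split between them. Summed CPM were 4337, 4258 and 5764 in mdka cn105 and 4244, 4331 and 5549.8 in mdka +/+, again with overlapping genotypes and with replicate 4 the highest in each. The mean was 4786 ± 848 against 4709 ± 729.8 (SD, n = 3 pools each). The log2 fold change of total fibronectin transcript was 0.02 (SE 0.17, 95% interval -0.38 to 0.43), which is a 1.02-fold difference with an interval from 0.769 to 1.34 (adjusted p = 0.981, edgeR's test).

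The balance between the paralogs was then compared inside each library, where no normalization is needed. The fn1b count was 4.42, 2.72 and 3.96 times the fn1a count in mdka cn105 replicates 2, 3 and 4, and 2.82, 4.54 and 4.83 times in mdka +/+ replicates 1, 2 and 4. Every library held more fn1b than fn1a counts. Mdka cn105 replicate 3 and mdka +/+ replicate 1 had low ratios, and the other libraries had high ratios in both genotypes. Counts were not divided by transcript length, so the ratio compares libraries and is not a ratio of molecules. On the log2 scale the ratio was 1.86 ± 0.37 in mdka cn105 and 1.98 ± 0.42 in mdka +/+ (SD, n = 3 pools each), a difference of -0.13 (exact permutation test, two-sided, p = 0.5).

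**Figure D2:**
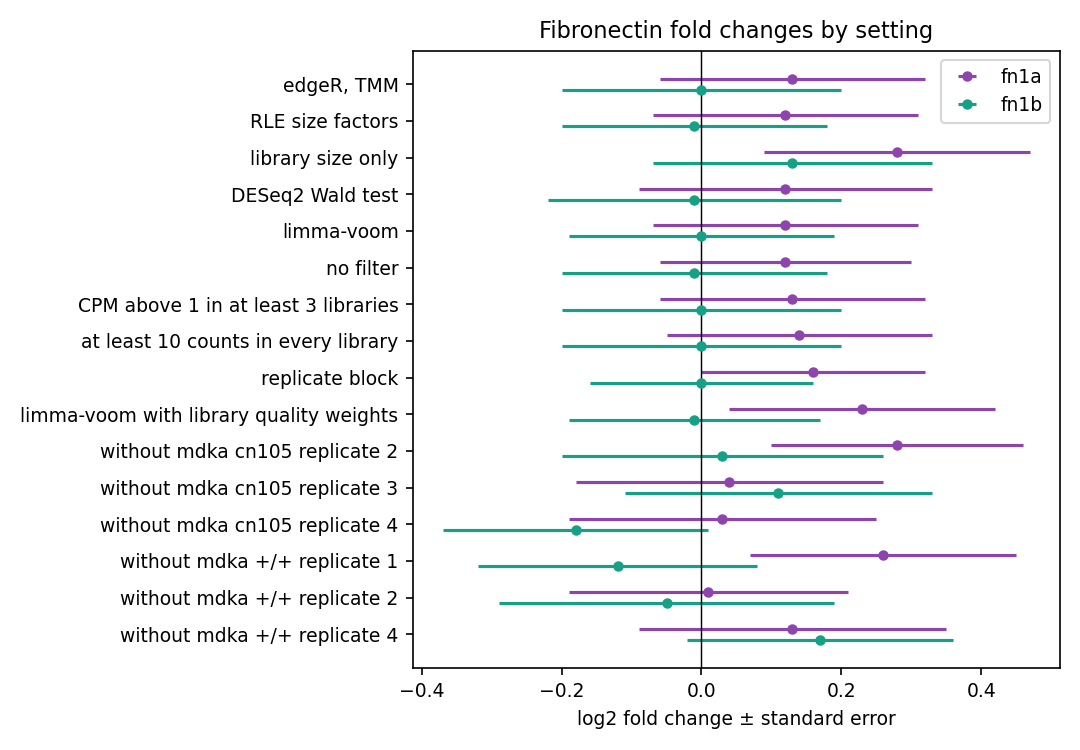
Log2 fold change of fn1a and fn1b (horizontal axis, mdka cn105 over mdka +/+, with bars of ± 1 standard error) under the edgeR fit with TMM and each of 15 alternatives. The fn1a values lie between 0.01 and 0.28 and the fn1b values between -0.18 and 0.17, and no alternative gave either gene an unadjusted p under 0.05.

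Cells assemble fibronectin into fibrils through receptors, whose genes were examined next. Of 17 integrin subunit genes that form or can form fibronectin-binding heterodimers, 16 passed the filter, 1 was higher and 1 lower in mdka cn105 at an unadjusted p under 0.05 (12.5% of those tested, against 12.1% of all genes), and their median log2 fold change was 0.21 against -0.01 for all genes. The number higher was 1 in DESeq2, 2 in limma-voom, 5 with library size only and 4 with the replicate number as a block. Over the whole table these fits called 2121, 2121, 2582 and 1976 genes in that order. With library size only, 80.6% of the called genes were higher. The number of integrin genes higher was 0 without mdka cn105 replicate 2 or mdka +/+ replicate 4 and 2 without mdka +/+ replicate 1. Without these libraries 1682, 2772 and 2425 genes were called over the whole table. The number of integrin genes lower was 1 in each of the fits named here. Symbols in capitals are those of the human ortholog, the only name that the table used here gives, and copies with the same symbol are told apart by their Ensembl identifiers. No gene of the receptor lists had an adjusted p under 0.05 in edgeR, DESeq2 or limma-voom.

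ITGA5, the alpha subunit of the main fibronectin receptor alpha5-beta1, was at 199.9, 132 and 175 CPM in mdka cn105 and at 186, 258 and 136 CPM in mdka +/+. The genotypes overlapped, with the highest value in mdka +/+ replicate 2 (log2 fold change -0.20, 95% interval -0.77 to 0.38). ITGAV, the alpha subunit of several RGD-binding receptors, was at 91.5, 82.2 and 113 CPM against 86.9, 87.3 and 73.4 CPM (log2 fold change 0.21, 95% interval -0.13 to 0.55). The higher of the ITGB1 copies (ENSDARG00000071863), which encodes the beta1 partner of these alpha subunits, was at 219, 235 and 219 CPM in mdka cn105 and 185, 191 and 206 CPM in mdka +/+. These pools did not overlap, but the difference was small and did not pass (log2 fold change 0.21, 95% interval -0.03 to 0.45, adjusted p = 0.483, edgeR's test). The other abundant ITGB1 copy (ENSDARG00000104484) had a log2 fold change of 0.08 (95% interval -0.26 to 0.42).

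The integrin subunit that was lower was itga3b, whose protein alpha3 is known chiefly as a laminin receptor subunit. It was at 33.9, 36.3 and 25.8 CPM in mdka cn105 and 43.9, 48.8 and 47 CPM in mdka +/+. All mdka cn105 pools lay below all mdka +/+ pools (log2 fold change -0.54, SE 0.15, adjusted p = 0.230 in edgeR's test), and the call held with each library left out. The subunit that was higher was an ITGB3 copy (ENSDARG00000045070), the beta3 partner of alphaV that also forms the fibrinogen receptor of mammalian platelets, at 22.8, 13.4 and 17 CPM against 10.8, 14.6 and 8.64 CPM. Its genotypes overlapped (log2 fold change 0.64, adjusted p = 0.369 in edgeR's test). It no longer passed without mdka cn105 replicate 2 (log2 fold change 0.41), mdka cn105 replicate 4 (0.67), mdka +/+ replicate 1 (0.61) or mdka +/+ replicate 4 (0.48). ITGA4, an alpha subunit of fibronectin receptors on leukocytes, was low, at 3.31 ± 0.212 CPM against 2.12 ± 0.74 CPM (SD, n = 3 pools each, log2 fold change 0.64, 95% interval -0.03 to 1.30). It did not pass in the edgeR fit with TMM, and did pass in limma-voom (0.67), also with library quality weights (0.79). In edgeR it passed with library size only (0.78), at least 10 counts in every library (0.64) or the replicate number as a block (0.95). It also passed without mdka +/+ replicate 1 (0.96).

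Syndecans are transmembrane proteoglycans that bind the heparin-binding region of fibronectin beside integrins. Both measured genes overlapped between the genotypes and did not pass the test. The log2 fold change was 0.01 (95% interval -0.27 to 0.28) for sdc2 and -0.06 (95% interval -0.56 to 0.44) for sdc4, which has a role in focal adhesions.

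Of 25 tested genes for the proteins that join integrins to actin and signal at adhesions, 3 were higher and 3 lower in mdka cn105 in edgeR's test (6 of 25, against 12.1% of all genes), with a median log2 fold change of 0.07. DESeq2 called 3 higher and 5 lower, with 2121 genes called over the whole table. The higher genes were TLN1 (talin, which activates integrins) at 409.7, 373 and 393 CPM against 349, 333 and 292 CPM, lims1 (PINCH, a partner of integrin-linked kinase) at 178 ± 4.37 against 145 ± 5.76 CPM, and a FERMT3 copy (ENSDARG00000030938; kindlin-3, the kindlin of blood cells) at 15.3 ± 4.52 against 8.58 ± 2.14 CPM. The lower genes were parvb (beta-parvin, also a partner of integrin-linked kinase) at 159.7 ± 11.6 against 219 ± 30.7 CPM, ptk2ab (focal adhesion kinase) at 31 ± 3.04 against 39.7 ± 5.89 CPM, and a VCL copy (ENSDARG00000044968; vinculin) at 17.5 ± 1.37 against 22.2 ± 2.07 CPM. Only parvb among these 6 kept an unadjusted p under 0.05 with every library left out in turn, and the adjusted p in edgeR's test ranged from 0.246 for parvb to 0.400 for TLN1. Without mdka cn105 replicate 2 the log2 fold changes of TLN1, lims1, FERMT3, ptk2ab and VCL were 0.23, 0.29, 0.70, -0.30 and -0.33, without mdka cn105 replicate 4 they were 0.27, 0.27, 0.71, -0.36 and -0.30, and none of the 5 passed in edgeR's test. Without mdka +/+ replicate 2 only FERMT3 of these 5 passed, with 0.29 for TLN1, 0.28 for lims1, -0.24 for ptk2ab and -0.26 for VCL, and TLN1 also did not pass without mdka cn105 replicate 3 (0.30) or mdka +/+ replicate 4 (0.20). Scaled by library size only, ptk2ab (-0.22) and VCL (-0.20) did not pass.

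Of 30 tested genes for proteins that assemble with fibronectin in the matrix, 13 were higher in mdka cn105 and none was lower at an unadjusted p under 0.05 in edgeR's test (43.3%, against 5.64% of all genes higher), and the median log2 fold change was 0.35. DESeq2 called 14 higher and limma-voom 13, and neither called a lower gene. Over all alternatives 9 to 14 genes were higher and 0 to 2 lower. The lower calls came with the replicate number as a block (FBLN2 -0.79 and thbs2a -0.67 on the log2 scale) or with mdka +/+ replicate 1 (FBLN2, -0.82), mdka +/+ replicate 2 (BGN, -0.56) or mdka cn105 replicate 4 (FBLN1, -0.83) left out, and these genes are named after their values were seen. The 13 higher genes include collagens and the periostin gene postna that the study selected on the same libraries, so their count is not independent evidence of a direction. After adjustment over all genes none of the 13 passed in edgeR or limma-voom, and 7 passed in DESeq2.

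Among them, thbs1b (thrombospondin 1, a matricellular protein that can activate latent Tgf-beta) was at 726, 468 and 512 CPM in mdka cn105 and 180.2, 226 and 189 CPM in mdka +/+. All mdka cn105 pools lay far above all mdka +/+ pools (log2 fold change 1.52, SE 0.19, adjusted p = 0.0771 in edgeR's test). The matricellular postna (periostin) was at 406, 358 and 283 CPM against 183, 164 and 195 CPM (log2 fold change 0.95, SE 0.16, adjusted p = 0.128 in edgeR's test). The fibrillar collagen genes col1a1a, col1a1b, col1a2, col5a1 and col5a2a, whose products bind fibronectin, had log2 fold changes of 0.51 to 0.67. The remaining genes were fbln5 (fibulin 5, an elastic fibre protein) at 0.80, a THBS1 copy (ENSDARG00000103775) at 0.85, DCN (decorin) at 0.50, sparc at 0.49, fbn2b (fibrillin 2) at 0.49 and LTBP1, which anchors latent Tgf-beta to the matrix, at 0.44 on the same scale. With every library left out in turn, thbs1b, col1a1a, col1a1b, col5a1, col5a2a, fbln5 and postna kept an unadjusted p under 0.05. Of the fits with a library left out, DCN passed only in the one without mdka +/+ replicate 4, and had 0.35 to 0.52 in the others. LTBP1 did not pass without mdka cn105 replicate 2 (0.37), mdka cn105 replicate 4 (0.41), mdka +/+ replicate 1 (0.44) or mdka +/+ replicate 4 (0.28), THBS1 without mdka cn105 replicate 2 (0.69) or replicate 4 (0.81), sparc without mdka cn105 replicate 3 (0.47) or replicate 4 (0.46), and col1a2 and fbn2b without mdka cn105 replicate 3 (0.42 each).

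**Figure D3:**
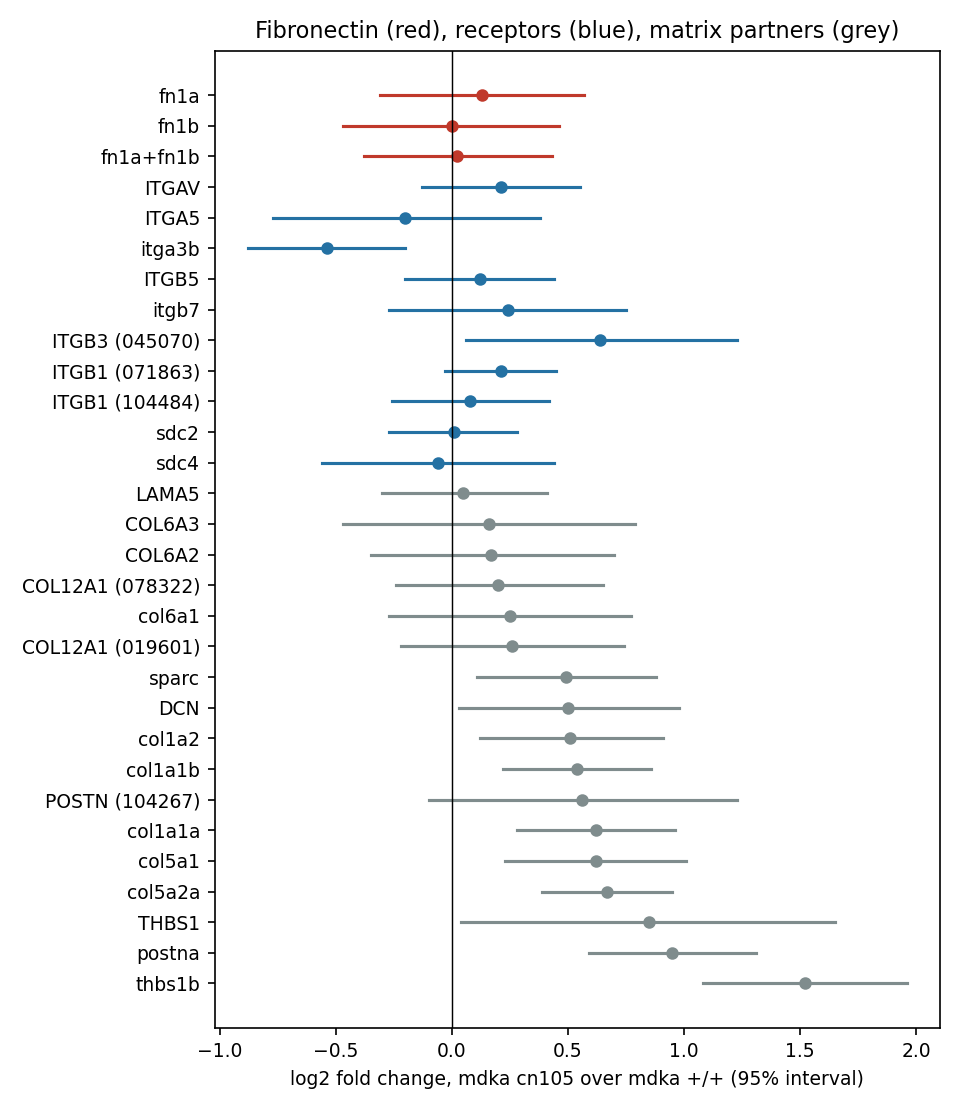
Log2 fold change (horizontal axis, mdka cn105 over mdka +/+, with 95% intervals) of fn1a, fn1b and their sum (red), of integrin and syndecan genes with a mean of at least 10 CPM (blue) and of matrix partners with a mean of at least 100 CPM (grey), with the last digits of the Ensembl identifier where a symbol occurs more than once. The fibronectin points sit at 0.13, -0.00 and 0.02 with intervals that cover 0, while the 5 fibrillar collagen genes named in the text lie between 0.51 and 0.67.

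Whether fibronectin moved differently from these matrix genes was compared directly, as the log2 ratio of fibronectin to each of 6 matrix genes within a library. The 6 genes are the 5 collagen genes and postna, which the study had picked from these libraries as higher. A lower fibronectin ratio in mdka cn105 is therefore largely given by the choice. With fn1b at 0.997-fold, each fn1b ratio difference is close to the log2 fold change of the matrix gene with its sign reversed. For postna these values were -0.94 and 0.95. The fn1b ratio was lower in all mdka cn105 pools than in all mdka +/+ pools for each of the 6 genes, and the fn1a ratio for 3 of 6. Over all 17761 genes with a ratio, this held for 4.69% with fn1b and 2.23% with fn1a. Those genes were not picked as higher, so these shares are not a like background for the 6 genes.

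For fn1b over col1a1a, the log2 ratio was 1.08, 0.54 and 1.32 in mdka cn105 and 1.56, 1.53 and 1.74 in mdka +/+. The mdka +/+ pools lay close together and mdka cn105 replicate 3 lay apart at the low end (difference -0.63). For fn1b over postna it was 3.12, 3.12 and 4.02 against 4.10, 4.44 and 4.56, where mdka cn105 replicate 4 was near the lowest mdka +/+ pool (difference -0.94). The differences for col1a1b, col1a2, col5a1 and col5a2a were -0.54, -0.53, -0.64 and -0.67. The fn1a ratios to col1a1a, col5a2a and postna did not overlap (differences -0.50, -0.55 and -0.82), and those to col1a1b, col1a2 and col5a1 did (differences -0.41, -0.40 and -0.51). The gap for fn1a over col1a1a was narrow, with mdka cn105 replicate 4 at -0.67 and mdka +/+ replicate 2 at -0.66. For fn1a over col1a1b the same pools were at -0.66 and -0.68. In two-sided exact permutation tests p was 0.1, the smallest that 3 pools against 3 allow, for the 9 ratios that did not overlap, and 0.133 after Benjamini-Hochberg adjustment over the 12 ratios, so this design could not reach 0.05. The 12 ratios share libraries and members and are not independent of each other. They are also not independent of the choice of the matrix genes from these libraries.

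**Figure D4:**
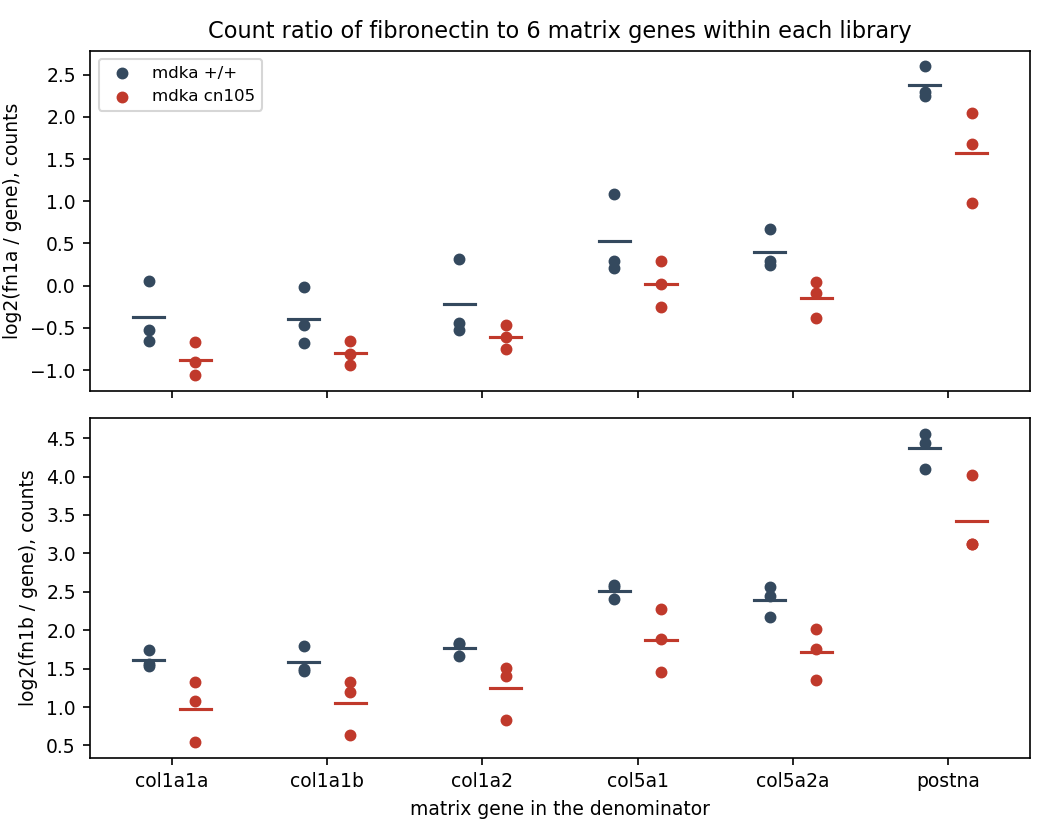
Log2 ratio of fn1a counts (upper panel) and fn1b counts (lower panel) to the counts of 6 matrix genes within each library, with a point for each pool and a line at the mean of each genotype. The mdka cn105 means lie below the mdka +/+ means in all 12 comparisons, by 0.40 for fn1a over col1a2 up to 0.94 for fn1b over postna, and 9 of the 12 comparisons have no overlap.

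Enzymes that modify and join the fibrils showed 3 higher and no lower genes of 16 tested in each of edgeR, DESeq2 and limma-voom, against 5.64% of all genes higher in edgeR, with a median log2 fold change of 0.23. The study had already named plod2, among these 3, as higher from the same libraries. The count is therefore not independent evidence of a direction. After adjustment over all genes none of the 16 enzyme genes passed in edgeR or limma-voom, and 2 passed in DESeq2. Without mdka +/+ replicate 4, 5 were higher, in a fit that called 2772 genes over the whole table against 2157 with all libraries. The higher genes were plod2 (273 ± 37.9 against 173 ± 2.86 CPM) and plod3 (54 ± 3.56 against 39.4 ± 2.17 CPM), lysyl hydroxylases of collagen, and LOX (28.4 ± 6.23 against 19.4 ± 4.37 CPM), a lysyl oxidase that cross-links collagen and elastin. The calls for plod2 and plod3 held with each library left out, with log2 fold changes of 0.65 and 0.45. LOX had a log2 fold change of 0.55, and no longer passed without mdka cn105 replicate 2 (0.49), mdka cn105 replicate 3 (0.41), mdka +/+ replicate 1 (0.55) or mdka +/+ replicate 2 (0.39). TGM2, the transglutaminase that cross-links fibronectin itself, was at 331 ± 79.1 against 286 ± 51.6 CPM (SD, n = 3 pools each, log2 fold change 0.21, 95% interval -0.26 to 0.68) and did not pass.

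For the 20 tested genes for proteases that can cleave fibronectin, or their inhibitors, no unadjusted p was under 0.05 in edgeR, DESeq2 or limma-voom. In edgeR's test 12.1% of all genes were called. The median log2 fold change of the list was 0.14. Leaving out mdka +/+ replicate 4 gave 3 higher and 2 lower genes. That fit called 2772 genes over the whole table, against 2157 with all libraries. MMP2, a gelatinase, and a TIMP2 copy (ENSDARG00000075261), an inhibitor of matrix metalloproteinases, were among the abundant genes of the list. Their log2 fold changes were 0.20 (95% interval -0.37 to 0.77) and -0.54 (95% interval -1.54 to 0.46), with overlapping pools for each.

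Tgf-beta signalling is a known inducer of fibronectin and collagen transcription in fibroblasts. Of 21 tested genes of the pathway, including its CCN targets, 3 were higher and 1 lower in mdka cn105 in edgeR's test, where 12.1% of all genes were called, and the median log2 fold change was 0.04. Without mdka +/+ replicate 1, 5 were higher, in a fit that called 2425 genes over the whole table against 2157 with all libraries. The targets ccn2a and ccn2b, copies of connective tissue growth factor, were higher. The ccn2a transcript was at 411, 388 and 598 CPM in mdka cn105 and 164, 268 and 165 CPM in mdka +/+, with no overlap (log2 fold change 1.22, SE 0.25, adjusted p = 0.169 in edgeR's test). The ccn2b transcript was at 15.6, 15.3 and 17.4 CPM against 8.27, 6.01 and 6.38 CPM, with a like fold change (log2 1.22, SE 0.17, adjusted p = 0.0944 in edgeR's test). Both calls held with each library left out. After adjustment over all genes no gene of the pathway list passed in edgeR or limma-voom, and 2 passed in DESeq2. Of the other abundant genes, the ligand TGFB3 was at 163 ± 19.4 against 127 ± 21.1 CPM (SD over 3 pools each) with no overlap. TGFB3 did not pass in the edgeR fit with TMM (log2 fold change 0.36, 95% interval -0.00 to 0.72), and did pass in limma-voom (0.37). In edgeR it passed with library size only (0.50), no filter (0.36), at least 10 counts in every library (0.37) or the replicate number as a block (0.49). It also passed without mdka +/+ replicate 1 (0.41) or mdka +/+ replicate 2 (0.45). CCN1, a further matricellular CCN gene, had a log2 fold change of -0.02 (95% interval -0.79 to 0.76). The signal transducer SMAD3 had a copy that was higher (ENSDARG00000036096, log2 fold change 0.49, adjusted p = 0.351) and a copy that was lower (ENSDARG00000010207, log2 fold change -0.54, adjusted p = 0.320, both in edgeR's test). Without mdka cn105 replicate 3 or mdka cn105 replicate 4 neither copy passed, with log2 fold changes of 0.49 and 0.41 for the higher copy and -0.50 and -0.46 for the lower. The lower copy also did not pass without mdka +/+ replicate 1 (-0.49) or mdka +/+ replicate 4 (-0.43).

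Markers of several cell types moved with genotype, and their part in the fibronectin values was not tested. All 5 tested epicardial genes (TCF21, TBX18, WT1, wt1b and ALDH1A2) were detected. With all libraries, none had an unadjusted p under 0.05 in edgeR, DESeq2 or limma-voom, where edgeR called 12.1% of all genes. Without mdka cn105 replicate 4 or mdka +/+ replicate 1, 1 was lower, in fits that called 1332 and 2425 genes over the whole table. The summed level of the epicardial genes was 422 to 635 CPM in mdka cn105 and 334 to 538 CPM in mdka +/+. The fibroblast list summed to 3038 to 3916 against 1971 to 3307 CPM. Of its 9 genes, 2 were higher (DCN and postna, both also counted among the matrix partners), against 5.64% of all genes. The list named postnb, and postna entered it only as another copy under the same human symbol. The study had also picked postna from these libraries. Without mdka +/+ replicate 4, 5 of the 9 fibroblast genes were higher, in a fit that called 2772 genes over the whole table against 2157. In each other fit with a library left out, 1 was higher. Without mdka +/+ replicate 1, and with the replicate number as a block, 1 fibroblast gene was also lower. Cardiomyocyte genes summed to 36474 to 44309.8 against 50791 to 56423 CPM, with 5 of 7 lower (against 6.42% of all genes), all of them contractile genes such as MYL7 and tnni1b. Without mdka cn105 replicate 4 or mdka +/+ replicate 1, 2 of the 7 were lower, and 3 without mdka cn105 replicate 3. These fits called 1332, 2425 and 1573 genes over the whole table. Scaled by library size only, tnni1b still passed and the other 4 (MYL7, tnnt2a, cmlc1 and actc1a) did not, at log2 fold changes of -0.24 to -0.26. The same held with the replicate number as a block, where the other 4 had -0.30 to -0.39.

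Macrophage genes, which include mpeg1.1 and csf1ra, summed to 1131 to 1419 CPM in mdka cn105 and 653 to 901 CPM in mdka +/+. Of these genes 5 of 5 were higher, against 5.64% of all genes. The macrophage gene marco did not pass without mdka cn105 replicate 2 (log2 fold change 0.34), mdka cn105 replicate 3 (0.27) or mdka +/+ replicate 2 (0.29). Nor did it pass with the replicate number as a block (0.29), and in these fits 4 of the 5 were higher. The same fits called 1573 to 2166 genes over the whole table. Erythrocyte genes summed to 4729.7 to 10896 against 3104 to 5222 CPM, also with 5 of 5 higher in edgeR and DESeq2 and 3 of 5 in limma-voom. Without mdka cn105 replicate 2, mdka cn105 replicate 4 or mdka +/+ replicate 1, 3 of the erythrocyte genes passed. These fits called 1682, 1332 and 2425 genes over the whole table. Endothelial genes summed to 1022 to 1224 against 944 to 1161 CPM. Of 6, tie1 was higher and pecam1 lower, against 12.1% of all genes called. The pecam1 gene did not pass without mdka cn105 replicate 2 (log2 fold change -0.35), mdka cn105 replicate 4 (-0.34) or mdka +/+ replicate 4 (-0.27). Nor did pecam1 pass with library size only (-0.23). The tie1 call held with each library left out, but not with the replicate number as a block (0.41). Smooth muscle genes summed to 945 to 1171 against 823 to 1047 CPM. Of 5, 1 was higher (a MYH11 copy), against 5.64% of all genes. This MYH11 copy did not pass without mdka cn105 replicate 2, mdka cn105 replicate 3, mdka +/+ replicate 2 or mdka +/+ replicate 4. The neutrophil gene lyz was lower (log2 fold change -2.37), with 1 pool high, mdka +/+ replicate 1 at 42.9 CPM against 2.44 to 9.49 CPM in the others. Without that pool the log2 fold change of lyz was -1.18 and still passed. Hepatocytes are a source of plasma fibronectin, and of 5 liver genes TTR had 0 counts in all 6 libraries fabp10a and FGB had at most 3 counts in a library, apoa1b was at 1.20 to 2.07 CPM, and tfa, which encodes transferrin, was at 209.6 to 398 CPM in mdka cn105 and 261 to 779.7 CPM in mdka +/+. Neither tfa nor apoa1b passed in edgeR's test.

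**Figure D5:**
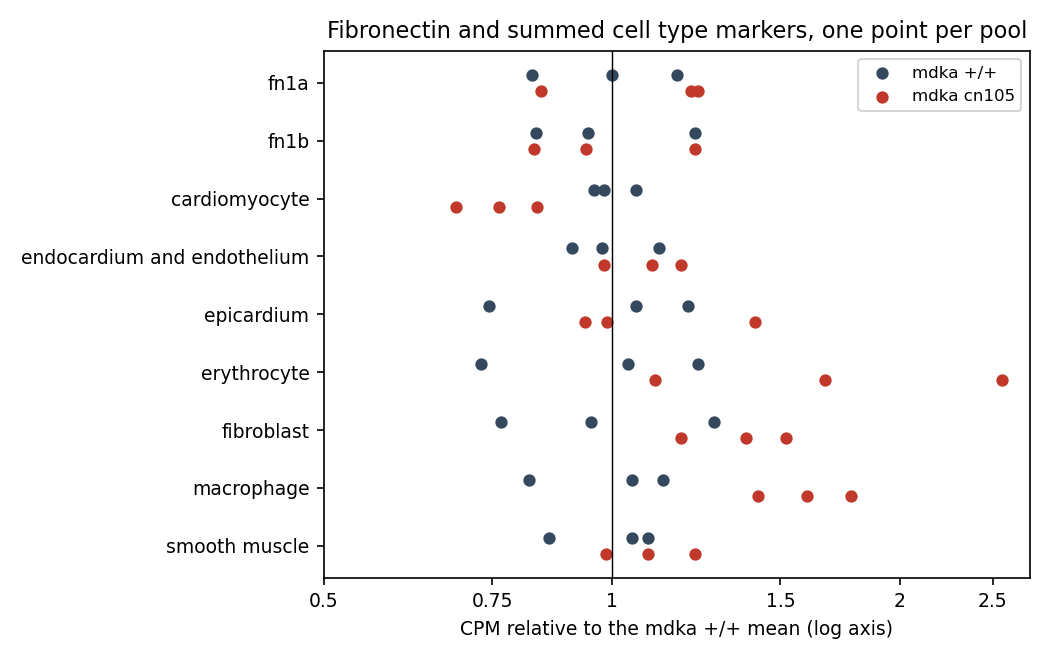
CPM of fn1a, of fn1b and of the summed genes of 7 cell type lists in each pool, relative to the mean of the mdka +/+ pools (horizontal log axis, 1 marks that mean). The fn1a and fn1b points of the genotypes overlap, the mdka cn105 points lie above all mdka +/+ points for macrophage genes, and the cardiomyocyte sums lie below, at 0.687 to 0.834 of the mdka +/+ mean.

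The likeness of other genes to each paralog was described by Pearson's r of log2 CPM over the 6 libraries, among 8745 other genes with a mean of at least 10 CPM. The 6 points of each gene come from the same libraries and share their depth and scaling. A value of r above 0.9 was found for 32 genes with fn1a and for 20 genes with fn1b. With only 6 points, unrelated genes also reach such values, and whether these counts exceed that was not tested. The closest to fn1a were OTUD3 (r = 0.983), LTA4H (0.981), SUPT16H (0.969), si:ch1073-185p12.2 (0.967) and ABI2 (0.964). The closest to fn1b were METTL6 (r = 0.993), NFXL1 (0.963), GLO1 (0.962), pttg1ipb (0.961) and VBP1 (0.961). None of these 10 belongs to the matrix or receptor lists. Those lists hold only 30 matrix, 16 integrin and 2 syndecan genes that were tested, so any 10 genes would rarely include one of them. The names depended on the setting: with genotype means removed, 1 of 5 was shared for each paralog, and without the minimum level 2 of 5 for fn1a and 1 of 5 for fn1b. Between the paralogs r was 0.012, and 0.015 with genotype means removed. With mdka, r was -0.201 for fn1a and 0.232 for fn1b, and 0.134 and 0.675 with genotype means removed.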

How the data were processed

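RNA from 3 pools of mdka cn105 and 3 pools of mdka +/+ apexes was sequenced as stranded single reads of 60 bases. Per the labels and methods, the authors demultiplexed with bcl2fastq 2.20.0.422, trimmed with cutadapt and mapped to the GRCz11 transcriptome with RSEM. The deposited values are RSEM expected counts per Ensembl gene, not normalized. They were rounded and tested with edgeR 4.0.16 (R 4.3.3; TMM, two-sided quasi-likelihood test, filterByExpr with a minimum count of 10 and a total of 15) on 17879 genes. P-values were adjusted by Benjamini-Hochberg over all of them. They weigh the difference between genotypes against the spread between pools, which edgeR estimates with information shared across genes. CPM are TMM-scaled, and log2 CPM for likeness used a prior count of 2. Within-library ratios were tested by exact permutation (Python 3.11.15, scipy 1.17.1).

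Library totals were 18940128 to 25195457 expected counts. The edgeR fit with TMM was also run on simulated data, and its outcome there is not reported here. Alternatives were DESeq2 1.42.0, limma-voom (limma 3.58.1), relative log expression factors, library size only, other filters, a block on replicate numbers, and single libraries left out. A limma-voom fit with quality weights per library was chosen after seeing the data.

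The genes and lists were chosen with earlier results of these data known. Named genes are fn1a, fn1b, mdka, the measured integrins and syndecans, of the other lists those with an unadjusted p under 0.05 and the 3 with the highest mean CPM, and the 5 genes most like each paralog. The epicardial, macrophage and other cell type genes were fixed as lists of their own. List symbols were matched to Ensembl identifiers by zebrafish symbol, or else by human symbol without the copy letter. The human symbol brought in all of its copies, also ones not listed, so 7 fibroblast symbols gave 9 genes and 4 smooth muscle symbols gave 7. Unmatched were plaur, fbn1, ltbp3, sdc3, and of the markers vmhc, hbba1, mpx and mfap4. The names table gives FN1 for both paralogs, so fn1a and fn1b are named by Ensembl identifier. Genome coordinates, transcript lengths and promoter or protein sequences of these genes were not used here. Primers come from the study's primer list. Of the genes that the naming rule selects, 1 is not reported here.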

Additional observations from a re-analysis of the deposited data

How the results depend on the processing

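In none of 15 alternatives did fn1a, fn1b or their sum have an unadjusted p under 0.05 (edgeR, DESeq2 and limma). The fn1a log2 fold change stayed above 0 throughout (0.12 to 0.28, and 0.01 to 0.28 with a library left out). The fn1b value, -0.00 with TMM, was 0.13 with library size only and 0.00 with at least 10 counts in every library, and ranged from -0.18 to 0.17 with a library left out. It was above 0 without mdka cn105 replicate 2 (0.03), mdka cn105 replicate 3 (0.11) or mdka +/+ replicate 4 (0.17). The summed value ranged from -0.14 to 0.16 with a library left out, and was below 0 without mdka cn105 replicate 4 (-0.14), mdka +/+ replicate 1 (-0.05) or mdka +/+ replicate 2 (-0.03). The fn1b to fn1a log2 ratio difference ranged from -0.37 to 0.08, and was above 0 without mdka cn105 replicate 3 (0.08) or mdka +/+ replicate 4 (0.02). The cause of these sign changes was not tested.

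The number of genes with an unadjusted p under 0.05 was 1976 to 2582, and 1332 to 2772 with a library left out. With adjusted p it was 1 in edgeR, 19 with library size only, 445 in DESeq2, 2 in limma-voom, 19 with no filter and 19 with library quality weights, and 0 to 3 with a library left out. The cause was not tested. With library size only, the median over all genes was 0.13 on the log2 scale, against -0.01 with TMM, and 80.6% of the called genes were higher, against 46.8%.

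Numbers 2 and 4 occur in both genotypes and the labels do not say that they mark shared handling. Deviations of same-numbered pools correlated at 0.09 and 0.00, against -0.09 to 0.09 for other pairs. These correlations did not set same-numbered pools apart. With so few pools, they cannot decide whether handling was shared. For fn1b, same-numbered pools were close, at 3536 and 3549.5 CPM for number 2 and 4601 and 4597 CPM for number 4 (mdka cn105 first). For fn1a the same pairs were at 800.2 and 782 CPM, and at 1163 and 952 CPM. The fn1b values of mdka cn105 replicate 3 (3112 CPM) and mdka +/+ replicate 1 (3134 CPM) were also close. With the replicate number as a block, the log2 fold change was 0.16 for fn1a, -0.00 for fn1b and 0.03 for the sum, none of which passed in edgeR's test, and the ratio difference was -0.16. The block fit called 1976 genes unadjusted and 4 adjusted. Counting error was 0.329% to 0.814% of a fibronectin count in a library.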

Other observations

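MMP9, a gelatinase that can cleave fibronectin, was chosen after its values were seen. It was at 40.2, 40 and 40.1 CPM in mdka cn105 replicates 2, 3 and 4, and at 90.6, 126 and 12.8 CPM in mdka +/+ replicates 1, 2 and 4. The mdka cn105 pools were nearly equal, while the mdka +/+ pools lay on both sides of them. The genotypes overlapped, and MMP9 did not pass in edgeR's test over all 6 libraries (log2 fold change -0.93, 95% interval -2.42 to 0.57). Without mdka +/+ replicate 4, the log2 fold change was -1.43 and passed the unadjusted threshold.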
